A study of Homo sapiens with 4 samples.

Results

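Genes for the end processing, splicing and nuclear export of tRNA were followed in cells lacking THUMPD1, the adaptor protein with which NAT10 acetylates cytidine in tRNA. The 9 genes were taken by symbol, with earlier results of these data known: XPOT, ELAC2, SSB, TSEN15, TSEN34, TSEN54, CLP1, POP1 and RPP30. All 9 were among the 18917 genes of the count table, and all 9 passed the filter on low counts that left 13128 genes for testing. TSEN15, a structural subunit of the tRNA splicing endonuclease, rose by 38.9% in the knockout (KO) cells, and RPP30, a protein subunit of RNase P, rose by 38.3%. The other 7 did not pass the test, and their changes lay between -0.25 and 0.10 on the log2 scale.

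A tRNA is transcribed with extra sequence at both ends and, for some tRNA genes, with an intron. The La protein SSB holds the uridine-rich 3′ end of the new transcript, RNase P, which includes POP1 and RPP30, removes the 5′ leader, and the RNase Z enzyme ELAC2 cuts off the 3′ trailer before CCA is added. The splicing endonuclease, which includes TSEN34, TSEN15 and TSEN54 and is bound by the RNA kinase CLP1, cuts out the intron, a ligase built around RTCB joins the exons, and exportin-t, encoded by XPOT, carries the mature tRNA through the nuclear pore with RanGTP.

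Total RNA was sequenced from wild-type (WT) and THUMPD1 KO cells of a human embryonic kidney line, with 2 libraries of each genotype. The labels call the line HEK293 and the study's methods HEK-293T, the derivative that carries the SV40 large T antigen. Cells of both genotypes were grown in DMEM with fetal bovine serum and 2 mM glutamine, without a further treatment in the labels. THUMPD1 was disrupted with CRISPR-Cas9, and edited cells were sorted singly. The number of clones behind the KO libraries is not given, and the genotype cannot be told apart from clonal history. The labels do not say whether libraries came from separate cultures, so p-values measure only the spread between these libraries, which may be technical. With 2 libraries per genotype, permuting the labels of a single gene exactly gives no p under 0.33, so tests rest on a model fitted across all genes.

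Libraries held between 7875722 and 11362363 counts, so that 3 counts, taken as the detection floor, were worth 0.259 to 0.391 CPM (each count divided by the library's size in megacounts, corrected by edgeR's TMM factors). Of the markers fixed for embryonic kidney cells, GATA3 stood between 27.5 and 28.3 CPM, EYA1 between 11.4 and 15.0 CPM and PAX2 between 6.46 and 7.95 CPM over all 4 libraries. None of these was at 0, and LHX1 had 6 and 6 counts in WT against 37 and 27 in KO. The keratins KRT5 and KRT14 were at 0 in every library. Fibroblast markers summed to 26.7 to 29.7 CPM in WT and 25.1 to 29.4 in KO, and the hepatocyte markers to at most 0.346. Of the blood markers, PTPRC had at most 5 counts and CD3E at most 1 count in any library. In such bulk RNA, fewer cells of a kind and less RNA per cell cannot be told apart.

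THUMPD1 itself (chr16:20702816-20742084, minus strand, GRCh38) served to check the labels. WT libraries gave 356 and 468 counts for it, and KO libraries 71 and 58. Its level fell from 44.5 ± 2.72 CPM (SD, n = 2) to 5.79 ± 0.486 CPM, a log2 fold change of -2.93 (SE 0.17, adjusted p = 1.27e-12, edgeR quasi-likelihood test, p adjusted by Benjamini-Hochberg). The KO and WT libraries were far apart, so the libraries matched their labels, although some THUMPD1 RNA was still counted in the KO cells.

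Against this background, 2 of the 9 genes were called higher in KO and 0 lower at an adjusted p under 0.05 in the same edgeR fit. Of all genes tested, 20.9% were called in either direction, 8.79% higher and 12.1% lower, so 2 calls among 9 genes lie near what the table holds in general. Both KO libraries lay above both WT libraries for 2 of the 9, where 30.4% of all genes did so. Both KO libraries lay below both WT libraries for 5 of the 9, where 30% of all genes did so, but none of those 5 passed the test. The median log2 fold change was -0.12 over the 9 genes and 0.01 over all genes tested.

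**Figure D1:**
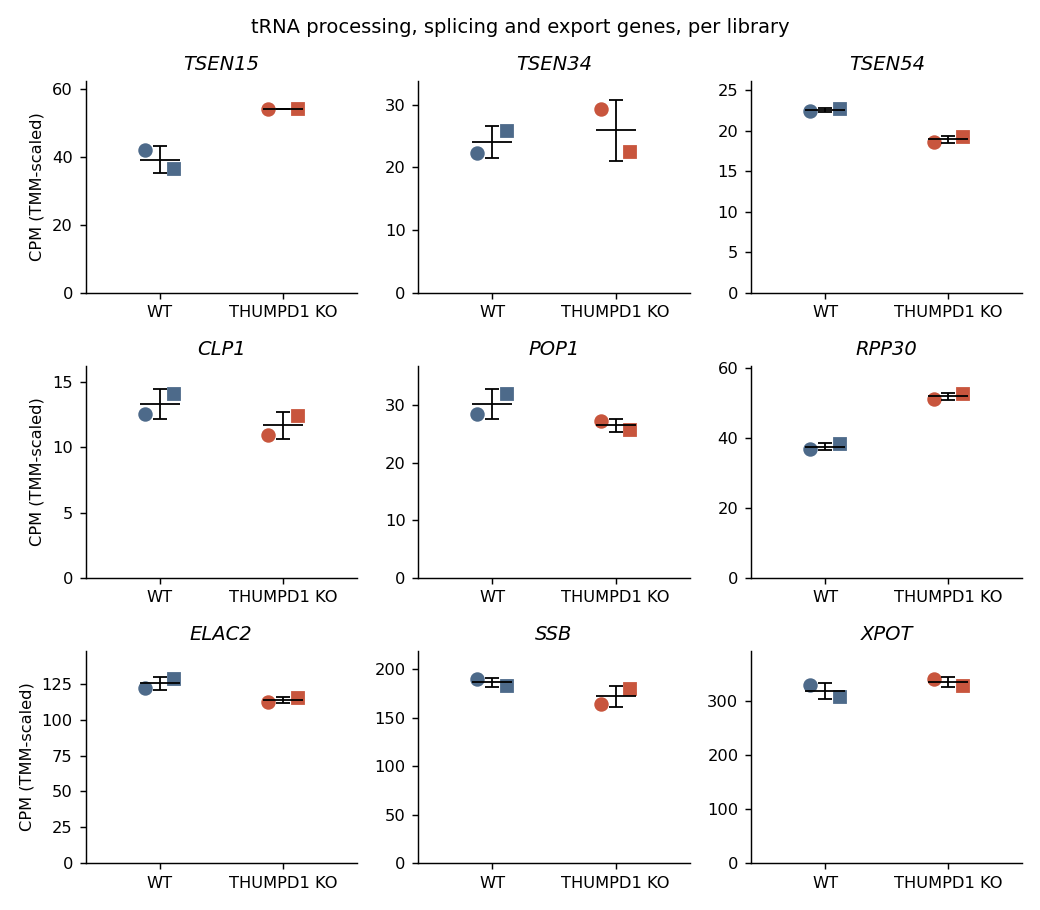
TMM-scaled CPM of the 9 tRNA processing genes in each library (blue WT, red KO; circles replicate 1, squares replicate 2), with a horizontal line at the mean of each genotype and error bars of 1 SD, each panel on its own linear axis from 0. The KO points of TSEN15 (54.0 and 54.1) and RPP30 (51.2 and 52.7) lie above their WT points, while those of XPOT and TSEN34 overlap between genotypes.

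The first step at the 5′ end is catalysed by RNase P, an enzyme with an RNA core and a shell of proteins that its relative RNase MRP, active on ribosomal RNA, largely shares. RPP30 (chr10:90871952-90908553, plus strand) is one of those proteins. The WT libraries held 282 and 420 counts of it and the KO libraries 593 and 561. On the CPM scale these were 36.8 and 38.2 in WT against 51.2 and 52.7 in KO. Each genotype's libraries lay close together and the groups were well separated, with means of 37.5 ± 1.02 and 51.9 ± 1.03 CPM (SD, n = 2). The log2 fold change was 0.47 (SE 0.11, adjusted p = 0.00295 by edgeR's quasi-likelihood test), a rise of 38.3% with a 95% interval from 18.3% to 61.7%. Of all genes tested, 19.4% had a larger absolute log2 fold change. The call held without any 1 library, with log2 fold changes from 0.44 to 0.50 and adjusted p from 0.00787 to 0.0153.

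RPP30 lies on chromosome 10, where the median log2 fold change over all genes tested was 0.05. The 48 other genes tested within 5 Mb on either side had a median of 0.16, and 6 of them exceeded RPP30. The rise of RPP30 was therefore larger than the shift of most of its neighbours. The promoter of RPP30 is given because it belongs to a member that rose. RefSeq on GRCh38.p14 places the 250 bases before its start at chr10:90871724-90871973 on the plus strand, and no letters are in capitals because neither motif searched, the E-box CACGTG or the core TGATGNAA of the amino acid response element, is in it on either strand:
RPP30 promoter: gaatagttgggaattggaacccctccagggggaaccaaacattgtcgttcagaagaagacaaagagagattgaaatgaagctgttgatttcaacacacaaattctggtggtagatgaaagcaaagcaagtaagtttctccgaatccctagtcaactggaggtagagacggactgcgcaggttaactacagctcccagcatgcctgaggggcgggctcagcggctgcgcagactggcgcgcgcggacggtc

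POP1 (chr8:98117293-98159835, plus strand), the large scaffold protein of RNase P and RNase MRP, was not called. Its counts were 218 and 352 in WT and 316 and 274 in KO, or 28.4 and 32.0 CPM against 27.3 and 25.7 CPM. Both KO libraries lay below both WT libraries, but by little. The log2 fold change of -0.19 (SE 0.14, 95% interval -0.47 to 0.08) did not pass the test (adjusted p = 0.3333, edgeR quasi-likelihood test). Of the 45 other genes tested within 5 Mb of POP1, whose median was 0.16, 43 had a higher log2 fold change than POP1.

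Of the other protein subunits of nuclear RNase P and RNase MRP listed, 8 were tested, 0 were called higher and 2 lower, and their median log2 fold change was -0.23. The shares over all genes tested, 8.79% higher and 12.1% lower, are the background for this and the other role groups, each of which holds few genes. RPP25, which binds the RNA core together with POP7, had 167 and 213 counts in WT and 66 and 74 in KO. It fell from 20.6 ± 1.70 to 6.32 ± 0.882 CPM, a log2 fold change of -1.70 (SE 0.21, adjusted p = 1.45e-06, edgeR), the widest change among the 41 other pathway genes tested. POP5 fell from 35.2 and 32.3 CPM to 25.05 and 26.9 CPM (log2 fold change -0.38, SE 0.13, adjusted p = 0.0438, edgeR), a call that was lost with library size scaling, upper quartile scaling, DESeq2 and limma-voom, and when any 1 library was left out. Subunits of 1 enzyme thus differed in direction, with RPP30 higher, RPP25 lower and POP1 not called. The 3 subunits of the separate mitochondrial RNase P had a median of -0.13 and 0 calls.

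At the 3′ end, SSB and ELAC2 were both slightly lower in KO, and neither passed the test. SSB (chr2:169791933-169812064, plus strand) had 190.3 and 183 CPM in WT against 165 and 180.1 CPM in KO, from 1459, 2015, 1905 and 1918 counts in that order. The second KO library lay just under the lower WT library. Its log2 fold change was -0.12 (SE 0.07, 95% interval -0.26 to 0.03, adjusted p = 0.246, edgeR quasi-likelihood test). The count of SSB is uncertain in 2 ways. Its exons share 572 bases with METTL5 on the opposite strand, whose counts were 282 and 469 in WT and 566 and 529 in KO. The methods name a stranded library kit, while the labels name another kit. Whether counting used strand is not given in the sources used here. SSB also has 4 processed pseudogenes, SSBL2P to SSBL5P, that match it over at least 200 bases at 90.4% to 96.6% identity.

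Both motifs were searched in 9 RefSeq promoter entries of 6 of the 9 genes. Promoters of TSEN15, TSEN54 and POP1 were not analysed here. Of the 6, SSB alone had a match to either motif, and that stretch is shown for this reason. The match is an E-box CACGTG, shown in capitals, at position -97 from the second listed start of SSB, within chr2:169799193-169799222 on the plus strand:
SSB E-box: tggggttccccgCACGTGgctggtgcccag
Among 35116 promoters of the same length in RefSeq, 7.26% held this E-box and 3.62% held TGATGNAA, counted on both strands. None of the 9 entries held TGATGNAA.

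ELAC2 (chr17:12991612-13018065, minus strand), which also trims tRNA in mitochondria, had 938 and 1413 counts in WT and 1300 and 1225 in KO. On the CPM scale it stood at 122 and 129 in WT and at 112 and 115 in KO. The groups were separate but close, with means of 125 ± 4.42 and 114 ± 1.93 CPM (SD, n = 2). The log2 fold change of -0.14 (SE 0.07, 95% interval -0.30 to 0.01) gave an adjusted p of 0.175 by edgeR's quasi-likelihood test. The interval leaves room for a fall of 0.30, and the test does not show that the level was equal. Its exons share 32 bases with ARHGAP44 on the other strand.

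The list of other genes for 3′ maturation and CCA addition, with 11 tested, had 0 calls in either direction and a median of -0.06. ELAC1, the short cytosolic form of RNase Z, had 39 and 37 counts in WT and 90 and 53 in KO, with overlapping CPM and a log2 fold change of 0.62 (adjusted p = 0.210, edgeR). It was chosen for mention after its values were seen. TRNT1, the enzyme that adds CCA, stood at 23.4 CPM in WT and 20.04 CPM in KO (log2 fold change -0.23, adjusted p = 0.301, edgeR), and was likewise chosen afterwards.

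**Figure D2:**
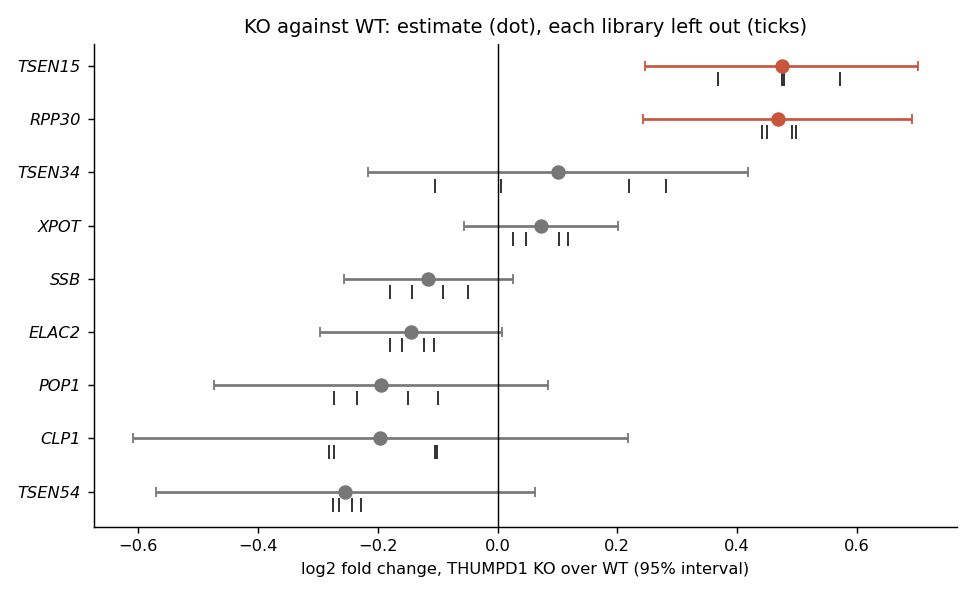
Log2 fold change of KO over WT for the 9 genes (points) with 95% intervals from edgeR's fit (lines), red at an adjusted p under 0.05, and ticks for the estimate without each library in turn. The intervals of TSEN15 (0.25 to 0.70) and RPP30 (0.24 to 0.69) lie above 0, and the other 7 include it.

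In the splicing endonuclease TSEN34 is a cutting subunit, and TSEN15 and TSEN54 are structural ones. TSEN15 (chr1:184051651-184123978, plus strand) was counted 321 and 399 times in WT and 625 and 576 times in KO. Its CPM were 41.9 and 36.3 in WT and 54.0 and 54.1 in KO. The KO libraries nearly coincided, and both lay above the higher WT library. The mean rose from 39.1 ± 3.93 to 54.0 ± 0.0697 CPM (SD, n = 2), a log2 fold change of 0.47 (SE 0.11, adjusted p = 0.00294, edgeR quasi-likelihood test). In percent, the rise was 38.9% with a 95% interval from 18.6% to 62.8%.

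This call rested in part on WT replicate 2, the lower of the WT libraries. Without it the log2 fold change was 0.37 (adjusted p = 0.0529, edgeR), and only 1 of the 9 genes, RPP30, was called higher. The median log2 fold change was 0.02 on chromosome 1, and the 41 other genes tested within 5 Mb of TSEN15 had a median of 0.01, with 5 of them above TSEN15. A processed pseudogene, TSEN15P1, matches TSEN15 over 495 bases at 92.1% identity and could share reads with it.

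TSEN34 (chr19:54189938-54194536, plus strand) had 22.3 and 25.8 CPM in WT and 29.4 and 22.4 CPM in KO, from 171, 284, 340 and 239 counts. The genotypes overlapped, with the KO libraries further apart than the WT libraries. Its log2 fold change of 0.10 (SE 0.15, 95% interval -0.22 to 0.42, adjusted p = 0.691, edgeR) had no stable sign and became -0.10 without KO replicate 1. TSEN54 (chr17:75515944-75524735, plus strand) had 172 and 250 counts in WT and 216 and 205 in KO, or 22.4 and 22.7 against 18.7 and 19.2 CPM. Its groups were separate, with a log2 fold change of -0.25 (SE 0.15, 95% interval -0.57 to 0.06), but at these counts the difference did not pass the test (adjusted p = 0.258, edgeR quasi-likelihood test).

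The proportions among the 3 subunits were compared per kilobase of exon, which cancels library scaling. TSEN15 made up 26.7% and 22.4% of the summed CPM per kilobase of TSEN15, TSEN34 and TSEN54 in the WT libraries, and 29.9% and 33.3% in the KO libraries. TSEN54 made up 32.4% and 31.7% in WT and 23.4% and 26.9% in KO. TSEN15 therefore took a larger share in both KO libraries and TSEN54 a smaller one, while TSEN34 averaged 43.4% and 43.3%. The 3 shares add up to a whole, so these differences are not independent. TSEN54 itself did not pass the test. The difference was 7.06 percentage points for TSEN15 and -6.95 for TSEN54, each with p = 0.33 in a two-sided exact permutation test, the smallest p that 2 against 2 libraries can give. The shares depend on the exon model. Per kilobase of the longest transcript, a setting chosen after the data were seen, TSEN15 made up 49.5% and 43.6% in WT and 53.1% and 57.2% in KO, which made it the most abundant of the 3, and its difference was 8.63 percentage points.

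CLP1 (chr11:57648188-57661865, plus strand), an RNA kinase that acts with the endonuclease and is also part of the machinery that forms mRNA 3′ ends, was the least counted of the 9. It had 96 and 155 counts in WT and 127 and 132 in KO, or 12.5 and 14.1 against 10.97 and 12.4 CPM. The higher KO library was just below the lower WT library. The log2 fold change was -0.20 (SE 0.20, 95% interval -0.61 to 0.22, adjusted p = 0.531, edgeR quasi-likelihood test), an interval wide enough to hold a fall by more than the rise fitted for TSEN15. CLP1 shares 260 exon bases with YPEL4 on the opposite strand, which had at most 1 count in any library. On its own strand it shares 102 exon bases with the noncoding RNA gene MIR130AHG, which is not in the count table. PCF11, the partner of CLP1 in mRNA cleavage, named after its values were seen, stood at 46.4 CPM in WT and 50.4 CPM in KO (log2 fold change 0.12, adjusted p = 0.504, edgeR).

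After the cut, exons are joined by the RTCB ligase complex. Of its 10 genes and those of related end steps tested, 1 was called higher and 4 lower, with a median log2 fold change of 0.00. FAM98A fell from 155 ± 3.93 to 108 ± 2.18 CPM (log2 fold change -0.52, SE 0.07, adjusted p = 8.69e-06, edgeR) and FAM98B, a subunit of the ligase complex and a relative of FAM98A, from 62.6 ± 7.74 to 44.4 ± 1.03 CPM (-0.50, SE 0.11, adjusted p = 0.00130). RTRAF, listed as C14orf166 and likewise a subunit of the complex, rose from 224 ± 8.67 to 293 ± 10.2 CPM (0.39, SE 0.06, adjusted p = 8.31e-05). RTCB and the helicase DDX1, named after their values were seen, fell by 0.31 (adjusted p = 0.00544, edgeR) and 0.23 (adjusted p = 0.0355). The call of RTCB was lost without WT replicate 2 (adjusted p = 0.0557) or without KO replicate 1 (adjusted p = 0.0825), and that of DDX1 without WT replicate 1, KO replicate 1 or KO replicate 2 and under 4 other settings (library size, upper quartile, DESeq2 and limma-voom). In the ligase complex, as in RNase P, subunits thus moved both ways.

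XPOT (chr12:64404392-64451125, plus strand), the export receptor for tRNA, was the most counted of the 9. It had 2527 and 3393 counts in WT and 3957 and 3502 in KO. On the CPM scale these were 329.6 and 308.7 in WT against 341.8 and 328.8 in KO, and the groups overlapped. The log2 fold change was 0.07 (SE 0.06, adjusted p = 0.442, edgeR quasi-likelihood test), with a 95% interval from -0.06 to 0.20. This interval was the narrowest among the 9 and excludes a rise of the size fitted for TSEN15 and RPP30. Processed pseudogenes match XPOT at 95.5% and 95.9% identity, so its reads could in part be shared.

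Among 7 other genes of small RNA export and the Ran cycle, 1 was called higher and 4 lower, with a median of -0.34. NXT1, the cofactor of the mRNA export receptor NXF1, fell from 18.8 and 20.02 to 12.4 and 14.1 CPM (log2 fold change -0.56, SE 0.18, adjusted p = 0.0240, edgeR), a call that DESeq2 did not make and that was lost without WT replicate 2 (adjusted p = 0.111) or without KO replicate 1 (adjusted p = 0.205). RANGAP1, which turns RanGTP into RanGDP in the cytoplasm, fell by 0.49 on the log2 scale (SE 0.06, adjusted p = 3.68e-06) and RCC1, which loads Ran with GTP in the nucleus, by 0.36 (SE 0.08, adjusted p = 0.00122). RANBP1 fell by 0.34 (adjusted p = 0.000257) and RAN rose by 0.17 (SE 0.06, adjusted p = 0.0381), and both were named after their values were seen. RAN was no longer called without WT replicate 2 or KO replicate 2, or with scaling factors taken without chromosomes 16 and 22.

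**Figure D3:**
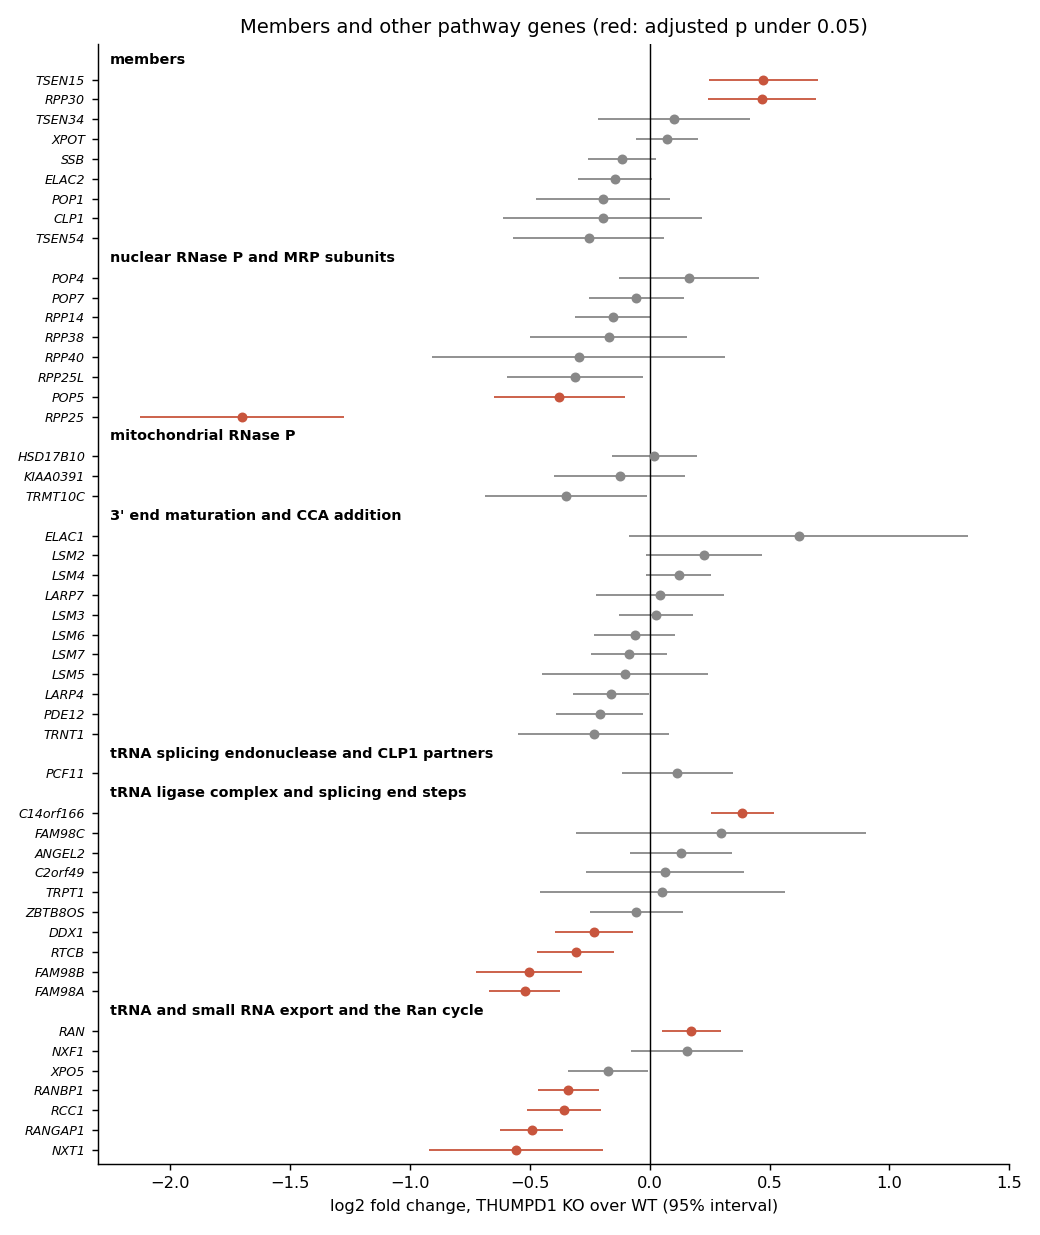
Log2 fold change of KO over WT for 40 of the 41 other pathway genes tested and the 9 chosen genes, 1 gene per line and grouped by role, with 95% intervals from edgeR's fit, where red points passed the test at an adjusted p under 0.05. RPP25 at -1.70 lies furthest from 0, and calls in both directions are seen in the ligase and Ran groups.

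Together the 41 other pathway genes tested, of 43 listed, held 2 calls higher and 10 lower, with log2 fold changes from -1.70 to 0.62 and a median of -0.10, where 8.79% of all genes tested were called higher and 12.1% lower. Whether the 41 differ from other genes was not tested. Of the 10 that fell, 3 (RTCB, RANGAP1 and RANBP1) lie on chromosome 22, where the median over 311 genes tested was -0.42. Chromosome 16, which holds THUMPD1, had a median of -0.44, while medians of the other 21 chromosomes ranged from -0.06 to 0.10. None of the 9 chosen genes lies on chromosome 16 or 22. For genes on those chromosomes, the part of the chromosome-wide shift in each fall was not tested.

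**Figure D4:**
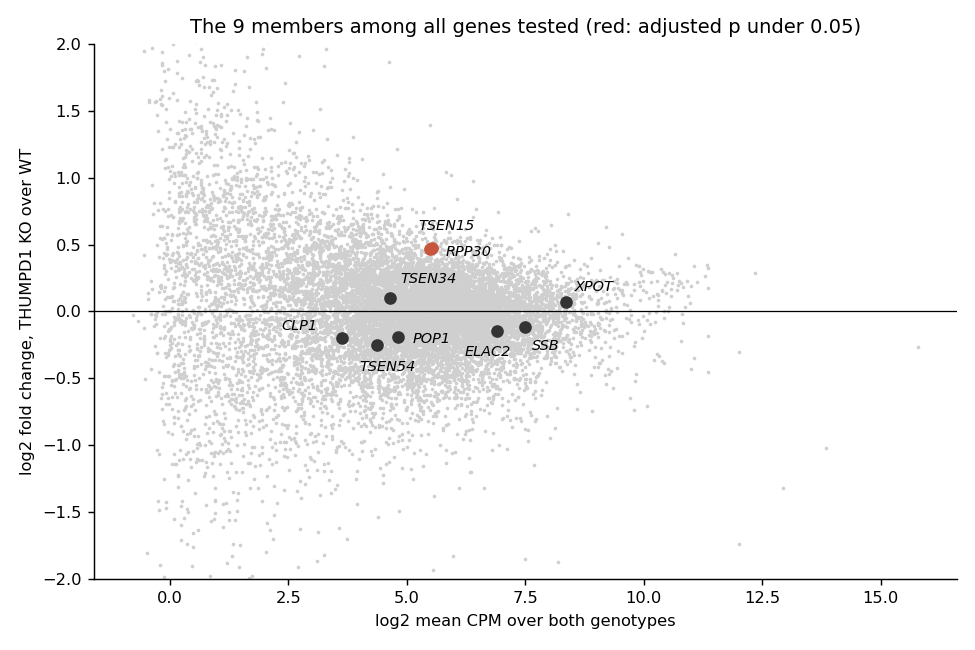
Log2 fold change of KO over WT against mean expression (log2 CPM) for all 13128 genes tested (grey points), with the 9 tRNA processing genes as named larger points, red where called, and 89 genes beyond 2 log2 units in either direction left out. TSEN15 and RPP30 lie in the upper part of the cloud, where 18.9% and 19.4% of genes had larger absolute changes. The other 7 lie between -0.25 and 0.10 on the vertical axis, with XPOT, SSB and ELAC2 towards the side of high expression.

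Levels were compared between genes per length, as CPM per kilobase of the union of annotated exons. In WT cells XPOT was highest at 43.6 ± 2.01 CPM per kilobase (SD, n = 2), followed by SSB at 37.0 ± 0.969, ELAC2 at 17.9 ± 0.630 and RPP30 at 8.49 ± 0.230. Each of these 4 lay above the next in order without overlap over all 4 libraries. Below them came TSEN34 at 6.80 ± 0.707, POP1 at 6.22 ± 0.524, CLP1 at 6.08 ± 0.512, TSEN54 at 5.01 ± 0.0497 and TSEN15 at 3.83 ± 0.385 CPM per kilobase.

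The ranges of TSEN34, POP1 and CLP1 overlapped between WT libraries, but within each WT library they stood in this order. TSEN34 was above both others in all 4 libraries, whereas CLP1 passed POP1 in KO replicate 2, at 5.66 against 5.30 CPM per kilobase. Both WT libraries had TSEN54 below CLP1 and TSEN15 below TSEN54. In KO the last pair changed places, with TSEN15 at 5.29 and 5.30 and TSEN54 at 4.14 and 4.27 CPM per kilobase. The order also depended on the exon model. TSEN15 has 20 annotated transcripts that cover 10197 exon bases, whereas its longest single transcript has 2690 bases. With the longest transcript as the length, TSEN15 moved up to place 5 at 14.5 CPM per kilobase and SSB passed XPOT, at 75.8 against 50.1 CPM per kilobase. Only 4 of the 9 kept their place. In KO cells RPP30 reached 11.8 ± 0.233 and TSEN15 5.30 ± 0.00684 CPM per kilobase of exon union, while SSB stood at 34.1 ± 2.17 and XPOT at 45.8 ± 1.25.

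**Figure D5:**
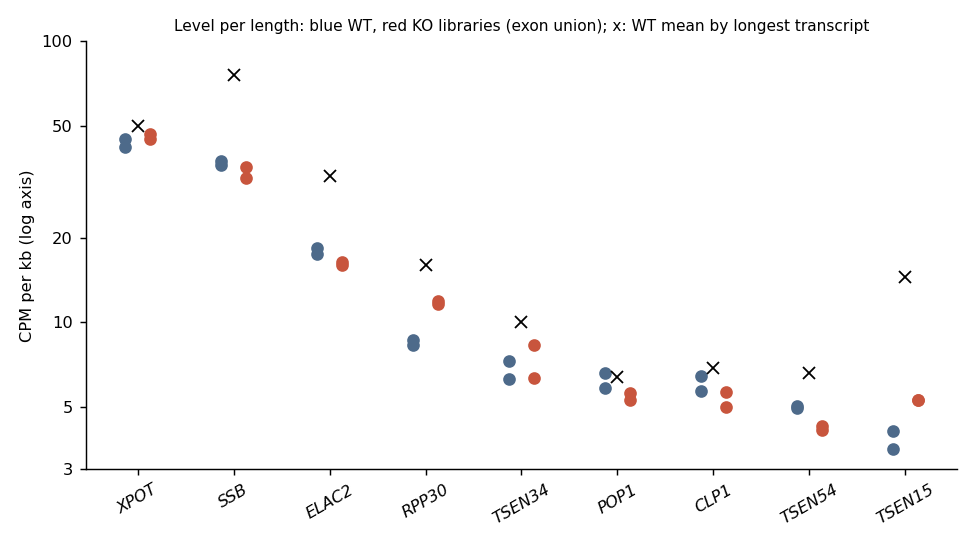
CPM per kilobase of the union of annotated exons for the 9 genes in each library (blue WT, red KO, 2 libraries each) on a log axis, in the order of the WT mean, with crosses for the WT mean per kilobase of the longest transcript. XPOT and SSB are the highest in both genotypes, and TSEN15, lowest in WT at 3.83, stands at 5.30 in KO.

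Genes whose pattern over the 4 libraries was most like that of TSEN15 were looked up among 5364 genes of similar level, by the distance between centred log2 CPM values. The nearest were OSTF1 (distance 0.0372), TPMT (0.0425) and CEP192 (0.0503), with log2 fold changes of 0.45, 0.47 and 0.47. TPMT encodes an enzyme that methylates thiopurine drugs and CEP192 a centrosome protein. As the distance was computed over 4 libraries only, it describes likeness in these libraries.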

How the data were processed

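The 4 libraries were grouped by the genotype in their labels, whose names match the count columns. The table the authors deposited gives raw read counts by gene symbol, whole and not normalized. The methods name a pipeline on GRCh38 for RNA-seq, while the submitters' processing notes name hg19, and which of them made the counts is not given in the sources used here. The labels name a Zymo RiboFree kit and the methods a stranded Illumina kit with ribosomal RNA depletion. The methods describe more samples per genotype than the 2 analysed here. Another table holds a comparison by the authors, with log2 fold changes, errors and p-values, which was not used.

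Genes that reached 1 CPM in 2 or more libraries were tested in R 4.3.3 with edgeR 4.0.16 (TMM, glmQLFit and glmQLFTest) and Benjamini-Hochberg adjustment over all 13128 genes, with a threshold of 0.05. The fit was also run on simulated data, with set changes larger than those fitted for TSEN15 and RPP30. Its outcome is not reported here, and nothing is drawn from it. The SE is the absolute log2 fold change divided by the square root of the F statistic. CPM use TMM-scaled library sizes, and SDs are over 2 libraries. Intervals and floors cover the spread or counting error only. DESeq2 1.42.0 and limma 3.58.1 (voom with quantile normalization) served as alternatives, with other scalings and filters, the replicate number as a block, and each library left out in turn. Genes were placed on GRCh38 with GENCODE 44, 17318 by symbol and 1203 by a RefSeq synonym, which is not known to be the build of the counts. Copies were searched with blastn 2.17.0 at 90% identity over at least 200 bases. Python 3.11.15, pandas 2.3.3, SciPy 1.17.1 and matplotlib 3.10.9 served for tables and figures.

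The genes named by rule are the 9, THUMPD1, for each role at most the 3 called pathway genes with the largest change and at least 10 counts in every library, and the 3 genes of pattern most like the called member with the largest change. Other pathway genes that are named (RTCB, DDX1, RANBP1, RAN, ELAC1, TRNT1 and PCF11) were picked once their values were known. The genes and lists were chosen with earlier results of these data known. RPP21 and LSM8 were listed but not analysed here, and the values of 1 pathway gene and 2 markers are not reported here.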

Additional observations from a re-analysis of the deposited data

How the results depend on the processing

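Among the 9 genes, no call changed under any of the 9 alternatives that used all 4 libraries, with log2 fold changes of 0.45 to 0.56 for TSEN15 and 0.45 to 0.55 for RPP30. When each library was left out in turn, TSEN15 ranged from 0.37 to 0.57, RPP30 from 0.44 to 0.50 and TSEN34 from -0.10 to 0.28. The number of the 9 called higher ranged from 1 to 2, pathway genes called from 1 to 2 higher and from 6 to 8 lower, and all genes called from 606 to 1106 higher and from 1011 to 1493 lower, with the lowest counts for all genes without KO replicate 1. Over all genes, 1154 were called higher with TMM, 2081 with library size alone and 645 with DESeq2. Lower genes made up 58.0% of the calls with TMM, 35.8% with library size alone, 50.8% with upper quartile scaling, 51.3% with limma-voom and 63.4% with DESeq2. Scaling by library size alone gave a median log2 fold change over all genes of 0.09, against 0.01 by TMM. With TMM factors computed without chromosomes 16 and 22, an alternative chosen after seeing the data, pathway genes called higher went from 2 to 1. With the longest transcript as the length, 4 genes kept their place in the order of levels. The cause of these changes was not tested. The labels do not say whether same-numbered libraries shared a batch. Their deviations correlated at r = 0.0257 across genes, which cannot decide it. With the replicate block, 1396 genes were called higher and 1826 lower, TSEN15 stood at 0.47 (adjusted p = 0.000438, edgeR) and RPP30 at 0.47 (adjusted p = 0.000554), and the block changed no call among the 9. CLP1, TSEN34 and TSEN54, with at most 340 counts in any library, had the widest intervals. Whether depth or the spread between libraries set these widths was not tested.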
